A study of Homo sapiens with 18 samples.

Results

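The transcripts of 8 receptor tyrosine kinase genes, AXL, MERTK, TYRO3, KIT, FLT3, CSF1R, INSR and IGF1R, were followed in HL-60 and MOLM-13, human cell lines from acute myeloid leukaemia. The genes were taken by symbol, and the set was chosen by values seen earlier in these data: AXL was selected on its log2 rise in MOLM-13 and KIT on its log2 fall in HL-60. The values of these genes in those lines are therefore described without a test. Of the 8 genes, 6 were listed among the 17110 genes of the HL-60 tables and 6 among the 17475 genes of the MOLM-13 tables. Each line was kept for 48 h (day 2) with the solvent DMSO, with DAC (decitabine, a cytidine analogue that traps DNA methyltransferases) or with NTX-301 (a code name for an inhibitor of the DNA methyltransferase DNMT1). Each of the 6 groups held 3 replicates, which makes 18 samples. The labels give 30 nM beside HL-60 and 15 nM beside MOLM-13. It is not clear whether it holds for both drugs or for DAC alone, and dose and line cannot be told apart. Both lines were grown in RPMI1640 with serum, and the labels do not say whether replicate wells came from separate cultures, so p-values measure only the spread between these samples.

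HL-60 is a promyelocytic line, and all 5 promyelocyte markers examined (MPO, ELANE, AZU1, PRTN3 and CTSG) were listed there, MPO at a log2 value of 18.71 ± 0.04 (SD, n = 3) in DMSO. MOLM-13 is a monocytic line that carries an internal tandem duplication in FLT3. The progenitor genes MEIS1 and HOXA9 were listed for MOLM-13 and not for HL-60, and the monocyte marker CD14 was listed for neither line. All values are the deposited log2 normalized values, and the read depth behind them is unknown. The median SD over all genes lay between 0.03 and 0.04 in every group of 3. The lines appear to have been normalized apart, and whether the values account for gene length is not given. A level is therefore compared only between groups of 1 line and never between genes or lines. A gene that is not listed has no value here, and its level cannot be given.

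Receptor tyrosine kinases are surface proteins that bind a ligand outside the cell, pair up and phosphorylate one another, and so start signalling through adaptors to RAS and PI3K. AXL, MERTK and TYRO3 form the TAM family, which binds GAS6 and protein S (PROS1) and is known for clearing dead cells and for drug tolerance in leukaemia. KIT, FLT3 and CSF1R are class III receptors, which support mast cells and stem cells (KIT), early progenitors (FLT3) and monocytes and macrophages (CSF1R). INSR and IGF1R are the receptors for insulin and the insulin-like growth factors.

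Because both drugs act on DNA methylation, the sequence before the start of 4 receptors is shown first: AXL, CSF1R, KIT and FLT3. They were picked with the values of their genes known. TYRO3 is not among them, although it lay above DMSO under both drugs in HL-60, at 0.05 (DAC) and 0.42 (NTX-301). Methylation itself was not measured. Each line below gives the 250 bases before the first RefSeq start, read 5′ to 3′ on the gene's strand, with the CG dinucleotides, where methylation of human DNA mostly occurs, in capitals. The sequences and positions come from RefSeq on GRCh38.p14: AXL at chr19:41218973-41219222 on the + strand, CSF1R at chr5:150113366-150113615 on the - strand, KIT at chr4:54657707-54657956 on the + strand and FLT3 at chr13:28100577-28100826 on the - strand.
AXL: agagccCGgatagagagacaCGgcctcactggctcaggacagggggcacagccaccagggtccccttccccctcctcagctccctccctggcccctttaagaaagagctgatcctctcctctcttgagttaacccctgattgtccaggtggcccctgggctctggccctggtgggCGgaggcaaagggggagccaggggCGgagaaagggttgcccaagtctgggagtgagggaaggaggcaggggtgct
CSF1R: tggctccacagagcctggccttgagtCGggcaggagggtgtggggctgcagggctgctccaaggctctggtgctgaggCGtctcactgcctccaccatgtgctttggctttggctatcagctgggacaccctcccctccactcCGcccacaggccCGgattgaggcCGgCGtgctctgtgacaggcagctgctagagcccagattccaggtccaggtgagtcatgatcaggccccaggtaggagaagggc
KIT: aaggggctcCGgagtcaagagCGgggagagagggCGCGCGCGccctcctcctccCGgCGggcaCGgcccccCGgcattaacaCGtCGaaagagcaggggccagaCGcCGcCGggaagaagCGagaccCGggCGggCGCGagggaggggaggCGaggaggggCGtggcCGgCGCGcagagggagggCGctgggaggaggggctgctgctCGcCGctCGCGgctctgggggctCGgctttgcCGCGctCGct
FLT3: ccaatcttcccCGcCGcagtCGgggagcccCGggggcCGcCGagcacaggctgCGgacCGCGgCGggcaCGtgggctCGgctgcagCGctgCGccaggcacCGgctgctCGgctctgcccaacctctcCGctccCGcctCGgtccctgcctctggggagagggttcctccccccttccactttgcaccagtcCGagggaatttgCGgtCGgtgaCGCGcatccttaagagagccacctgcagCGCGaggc
The windows of AXL and CSF1R, the genes that were higher under both drugs in MOLM-13, held 4 and 6 CG dinucleotides. The windows of KIT (lower in HL-60) and FLT3 (lower in MOLM-13) held 34 and 26. Over 35116 windows of the same length before the starts of 27305 genes, the median was 11 CG dinucleotides and 93.9% of windows held at least 1. As few as AXL or fewer were found in 34.3% of windows, and as few as CSF1R or fewer in 41.1%. For KIT and FLT3 these shares were 94.2% and 82.3%. These 4 windows were chosen by the values of their genes, and nothing is read from the split. The first windows of the other genes held 25 CG dinucleotides for MERTK, 28 for INSR, 39 for TYRO3 and 48 for IGF1R. Under NTX-301, TYRO3 was at 0.42 on the log2 scale against DMSO in HL-60 and at -0.23 in MOLM-13, and INSR was lower in both lines. A relation of CG content to the differences was not tested. RefSeq gives further starts for 3 of the genes, with 13 CG dinucleotides before that of AXL, 2 before that of CSF1R and 8 before that of TYRO3. Which start the cells used was not measured. The motif GGGCGG, searched on both strands and itself holding 1 CG, occurred 2 times in the AXL window, 1 time in those of CSF1R and KIT and not in that of FLT3, against 42.6% of all windows with at least 1 match.

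**Figure D1:**
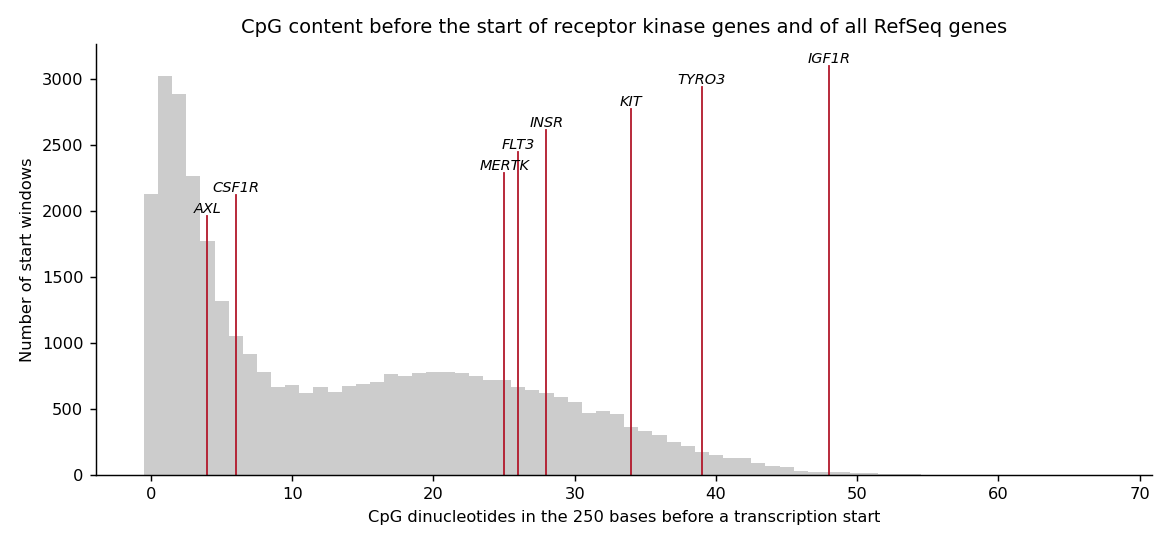
CG dinucleotides (x axis) in the 250 bases before a RefSeq transcription start, as a histogram of 35116 windows (grey bars, y axis in windows). Red lines mark the first start of each of the 8 receptor genes, and their heights only separate the labels: AXL at 4 and CSF1R at 6 lie below the median of 11, and the other 6 genes lie at 25 or more.

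Of the 8 genes, 5 were listed for both lines (TYRO3, FLT3, CSF1R, INSR and IGF1R). KIT was listed for HL-60 alone, AXL for MOLM-13 alone and MERTK for neither. Calls are counted without KIT in HL-60 and without AXL in MOLM-13, which leaves the same 5 genes in each line. In HL-60, DAC changed 2 of the 5 at a limma adjusted p-value under 0.05, FLT3 and INSR, both lower. The share of all genes tested that passed was 24.2%, 11.6% higher and 12.6% lower. NTX-301 changed 4 of 5 in HL-60, with CSF1R and TYRO3 higher and INSR and IGF1R lower, where 37.4% of all genes passed (18.3% higher, 19.2% lower). In MOLM-13, DAC changed 3 of 5, with CSF1R higher and FLT3 and INSR lower, where 36.6% of all genes passed (15.4% higher, 21.2% lower). NTX-301 changed 4 of 5 there, the same 3 in the same directions and TYRO3 lower, where 45.1% of all genes passed (20.3% higher, 24.8% lower). The direction split of all genes moved with the scaling. After centring on sample medians, 2270 genes were higher and 6053 lower with NTX-301 in HL-60 (3115 and 3265 as deposited). In MOLM-13 it became 1960 and 5731 with DAC (2689 and 3705) and 2735 and 5760 with NTX-301 (3543 and 4337). The 3 values of a drug did not overlap the 3 DMSO values for 5 of these 5 receptors in HL-60 with either drug, and for 3 of 5 (DAC) and 4 of 5 (NTX-301) in MOLM-13. Over all genes this held for 38.5%, 47.2%, 47.9% and 55.8% in the same order. The set was put together with values of these contrasts known, so nothing is read from the size of these counts. The median log2 difference over the 5 receptors in HL-60 was 0.04 with DAC and -0.06 with NTX-301, and that in MOLM-13 was 0.03 and -0.15, against medians over all genes between 0.00064 and 0.0034.

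**Figure D2:**
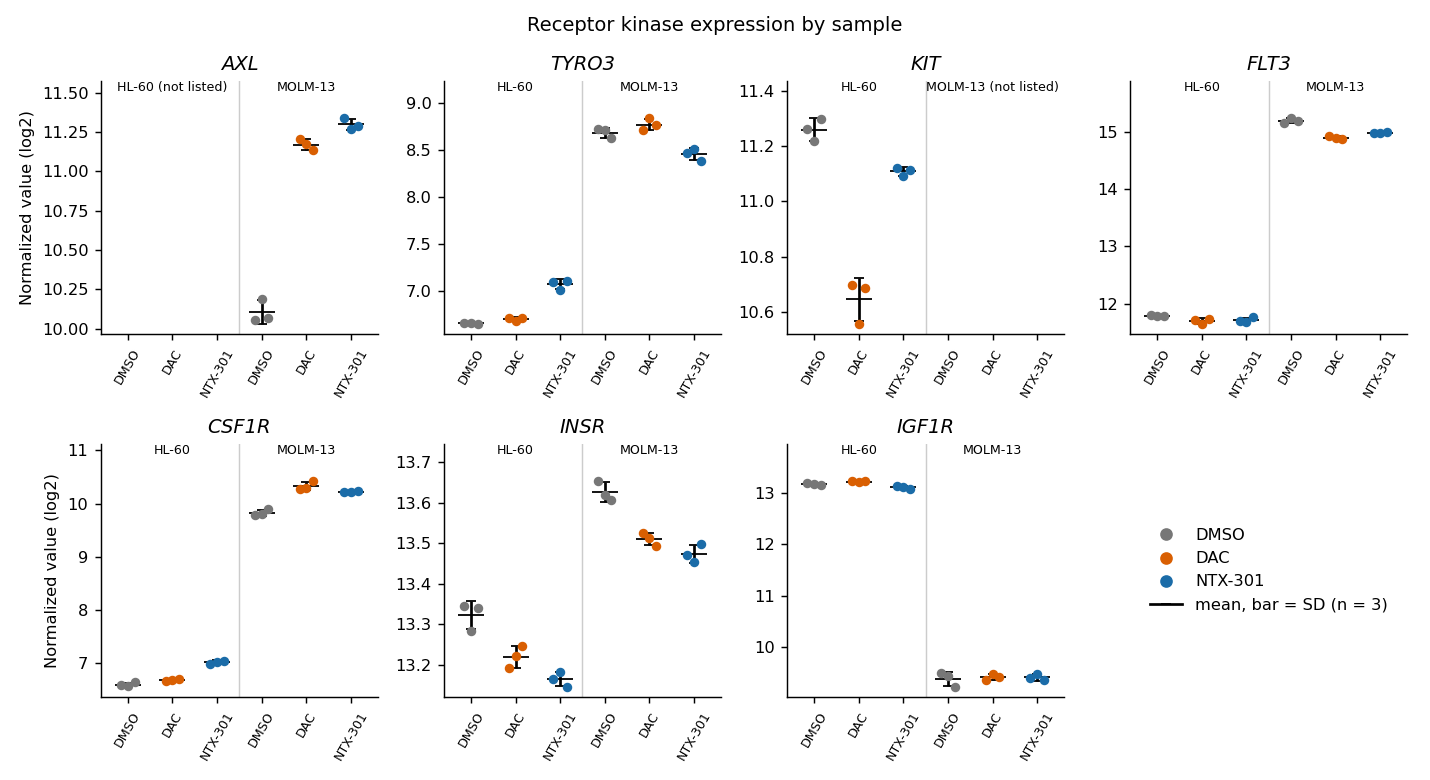
Deposited log2 normalized value (y axis, a separate scale per gene) of the 7 listed receptor genes in each sample, by drug (x axis) and line; points are samples, horizontal bars means and vertical bars SD (n = 3). AXL in MOLM-13 lies near 10.1 in DMSO and above 11.1 under both drugs, and KIT in HL-60 lies below 10.7 under DAC and above 11 elsewhere.

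In the TAM family, AXL read 10.06, 10.19 and 10.07 in the DMSO samples of MOLM-13. Under DAC it read 11.21, 11.17 and 11.13, and under NTX-301 11.34, 11.27 and 11.29. All drug samples lay above all DMSO samples, and the 3 NTX-301 samples lay above the 3 DAC samples. AXL was 2.09 times its DMSO level under DAC (log2 difference 1.07, SE 0.04) and 2.29 times under NTX-301 (1.19, SE 0.04). Among 17475 genes this difference ranked 3 from the highest under DAC and 2 from the highest under NTX-301. AXL was chosen for this rise, so nothing is read from these ranks. The NTX-301 samples lay 0.13 above the DAC samples (SE 0.04). In bulk RNA, more cells that hold a transcript and more of it per cell cannot be told apart.

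TYRO3, the TAM receptor listed for both lines, was changed by NTX-301 in opposite directions in them. In HL-60 it read 6.66, 6.66 and 6.65 in DMSO, 6.72, 6.68 and 6.72 under DAC and 7.10, 7.01 and 7.11 under NTX-301. The NTX-301 samples stood apart from the other 6, and the rise against DMSO was 0.42 on the log2 scale (SE 0.04, limma adjusted p = 6.37e-07). The DAC difference there was 0.05 (SE 0.04, adjusted p = 0.357). In MOLM-13 TYRO3 read 8.72, 8.71 and 8.63 in DMSO, 8.71, 8.84 and 8.77 under DAC and 8.47, 8.52 and 8.39 under NTX-301. NTX-301 samples were the lowest 3 of the 9, while DAC and DMSO samples overlapped. TYRO3 fell by 0.23 under NTX-301 (SE 0.06, adjusted p = 0.00519), and its DAC difference was 0.09 (SE 0.06, adjusted p = 0.245). Between the lines, the NTX-301 effect (MOLM-13 less HL-60) was -0.65 (SE 0.06, adjusted p = 2.38e-07), whereas the same difference for DAC was 0.04 (SE 0.06, adjusted p = 0.696).

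Among the class III receptors, KIT read 11.26, 11.22 and 11.30 in the DMSO samples of HL-60. It read 10.70, 10.56 and 10.69 under DAC and 11.12, 11.09 and 11.11 under NTX-301. The 3 groups did not overlap, with DAC lowest and DMSO highest. KIT under DAC was 0.654 times its DMSO level (log2 difference -0.61, SE 0.04) and ranked 2 from the lowest of 17046 genes. The gene was chosen for this fall, so nothing is read from the rank. Under NTX-301 it was 0.900 times the DMSO level (-0.15, SE 0.04). KIT also marks stem cells and mast cells, for which 5 of the markers looked for were listed in HL-60. Of 10 stem and progenitor markers 3 were listed for HL-60. With DAC 1 was higher and 1 lower (24.2% of all genes passed), and with NTX-301 1 was higher and 0 lower (37.4%). GATA2, a transcription factor of progenitors and mast cells, was higher under DAC (0.78, adjusted p = 6.57e-10) and NTX-301 (1.33, adjusted p = 1.18e-12). LYL1, a transcription factor of progenitors, was lower under DAC (-0.11, adjusted p = 0.0335) and at 0.07 under NTX-301 (adjusted p = 0.127), and ERG was at 0.05 and 0.09 (adjusted p = 0.444 and 0.165). Linear values of the 3 were summed, and such a sum is carried by its highest genes. Its log2 ranged from 12.84 to 12.99 in DMSO, 13.09 to 13.11 under DAC and 13.42 to 13.44 under NTX-301. CD34 and PROM1 were not listed. Of 6 mast cell markers 2 were listed. CPA3, a mast cell protease, rose under both drugs by 0.64 and 0.86 (adjusted p = 1.48e-07 and 3.79e-09). MS4A2 did not pass with either drug, at 0.09 and 0.05 (adjusted p = 0.144 and 0.382). The 5 promyelocyte markers gave 2 higher and 1 lower under DAC (24.2% of all genes passed) and 5 lower under NTX-301 (37.4%). The log2 of their summed linear values was 19.00 to 19.09, 18.99 to 18.99 and 18.62 to 18.65 in the same order of groups. MPO alone had means of 18.71, 18.64 and 18.36. The part of these cell states in the KIT values was not tested.

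FLT3, the receptor that is duplicated in part in MOLM-13, was lower in MOLM-13 under both drugs. It read 15.16, 15.24 and 15.20 in DMSO, 14.93, 14.90 and 14.88 under DAC and 14.99, 14.99 and 14.99 under NTX-301. All 6 drug samples lay under all DMSO samples. FLT3 fell by 0.29 with DAC (SE 0.02, adjusted p = 7.58e-06) and by 0.21 with NTX-301 (SE 0.02, adjusted p = 4.65e-05). Under quantile normalization both passed at a smaller size, -0.19 for DAC (adjusted p = 2.26e-05), while NTX-301 gave -0.08 (adjusted p = 0.00438). In HL-60 it read 11.79, 11.79 and 11.78 in DMSO, 11.71, 11.65 and 11.74 under DAC and 11.69, 11.68 and 11.76 under NTX-301. There too no drug sample reached the DMSO range, but the differences were small, -0.09 for DAC (SE 0.03, adjusted p = 0.0436) and -0.07 for NTX-301 (SE 0.03, adjusted p = 0.0606). The DAC call in HL-60 was lost without any 1 of the 3 DMSO samples, DAC replicate 1 or 2, or NTX-301 replicate 1, with adjusted p-values from 0.0538 to 0.179, and also with no mean-variance trend (adjusted p = 0.0616), median centring (adjusted p = 0.0502) and quantile normalization (adjusted p = 0.0744). Without DAC replicate 2 the difference was -0.06. The NTX-301 difference in HL-60 passed with median centring (-0.11, adjusted p = 0.00799), with a filter at a linear value of 32 (adjusted p = 0.0443), and without DAC replicate 2 (-0.07, adjusted p = 0.0441) or NTX-301 replicate 3 (-0.10, adjusted p = 0.0196). FLT3 was lowered more in MOLM-13 than in HL-60 by DAC (-0.21, SE 0.04, adjusted p = 0.000376) and by NTX-301 (-0.13, SE 0.04, adjusted p = 0.00850). Under quantile normalization the first was -0.12 (adjusted p = 0.00877) and the second did not pass (-0.02, adjusted p = 0.665).

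CSF1R, the macrophage colony-stimulating factor receptor, rose under both drugs in MOLM-13 and under NTX-301 in HL-60. In MOLM-13 it read 9.78, 9.80 and 9.89 in DMSO, 10.27, 10.30 and 10.42 under DAC and 10.21, 10.21 and 10.23 under NTX-301. DMSO samples were the lowest 3 of the 9, and DAC samples the highest. The rise was 0.51 with DAC (SE 0.05, adjusted p = 1.34e-05) and 0.39 with NTX-301 (SE 0.05, adjusted p = 4.35e-05). In HL-60 it read 6.59, 6.56 and 6.64 in DMSO, 6.66, 6.67 and 6.71 under DAC and 6.98, 7.03 and 7.05 under NTX-301. The groups kept apart in that order, with a rise of 0.42 under NTX-301 (SE 0.03, adjusted p = 4.74e-07) and a difference of 0.08 under DAC (SE 0.03, adjusted p = 0.104), which passed with no mean-variance trend (adjusted p = 0.0484). The DAC effect was larger in MOLM-13 than in HL-60 by 0.42 (SE 0.06, adjusted p = 5.26e-05). Genes with low deposited values spanned less over the samples, and whether this bears on the line difference was not tested. The NTX-301 effects differed by -0.03 (SE 0.06, adjusted p = 0.760, 95% interval -0.16 to 0.11).

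Most listed macrophage markers were also higher in MOLM-13 under both drugs. Of 15 markers 9 were listed there, and 6 were higher and 0 lower under DAC, where 36.6% of all genes passed, with 6 higher and 1 lower under NTX-301, where 45.1% did. CD86, a costimulatory surface protein, rose by 0.86 and 0.74 (adjusted p = 2.33e-07 and 5.31e-07), and ITGAM, the integrin CD11b, by 0.64 and 0.71 (adjusted p = 4.48e-07 and 1.82e-07). The other 4 that rose were LYZ (lysozyme, 0.78 and 0.12), CD68 (0.68 and 0.46), VCAN (0.53 and 0.31) and CD4 (0.39 and 0.29). FCGR1A, an antibody receptor, was at -0.05 under DAC (adjusted p = 0.477) and lower under NTX-301 (-0.14, adjusted p = 0.0341). Linear values of the 9 markers were summed, and the log2 of the sum ranged from 16.66 to 16.74 in DMSO. It ranged from 17.40 to 17.51 under DAC and from 16.83 to 16.90 under NTX-301. LYZ alone had means of 16.47, 17.25 and 16.59 in the same order, so the sum mostly follows LYZ. Against DAC, NTX-301 gave 0 of the 9 higher and 4 lower, where 7.42% of all genes passed (3.01% higher, 4.41% lower). CD14, CD163, MRC1, FCN1, C1QA and C1QB were not listed. In HL-60, 6 of the 15 were listed. With DAC 4 were higher and 0 lower (24.2% of all genes passed), and with NTX-301 3 were higher and 2 lower (37.4%). The log2 of their summed linear values was 13.61 to 13.62 in DMSO, 13.77 to 13.81 under DAC and 13.47 to 13.48 under NTX-301. The part of the macrophage markers in the AXL and CSF1R results was not tested. Other cell types were sparsely listed in HL-60 and MOLM-13: 1 and 1 of 6 lymphoid, 0 and 2 of 5 erythroid, 2 and 4 of 7 stromal and epithelial, and 2 and 3 of 6 mast cell markers.

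In the insulin receptor family, INSR was lower with both drugs in both lines, by small amounts. In HL-60 it read 13.34, 13.28 and 13.34 in DMSO, 13.19, 13.22 and 13.25 under DAC and 13.16, 13.18 and 13.15 under NTX-301. The DMSO samples were the highest 3. INSR fell by 0.10 with DAC (SE 0.02, adjusted p = 0.00572) and by 0.16 with NTX-301 (SE 0.02, adjusted p = 9.45e-05). In MOLM-13 it read 13.65, 13.62 and 13.61 in DMSO, 13.52, 13.51 and 13.49 under DAC and 13.47, 13.45 and 13.50 under NTX-301. DMSO samples were again the highest, and the DAC and NTX-301 samples overlapped. INSR fell by 0.12 with DAC (SE 0.02, adjusted p = 0.00192) and by 0.15 with NTX-301 (SE 0.02, adjusted p = 0.000212). Quantile normalization ended both calls in MOLM-13, at -0.02 (adjusted p = 0.551) and -0.04 (adjusted p = 0.191). The effects in the 2 lines differed by -0.01 for DAC (95% interval -0.08 to 0.05, adjusted p = 0.778) and by 0.0055 for NTX-301 (95% interval -0.06 to 0.07, adjusted p = 0.907). Under quantile normalization the second passed, at 0.08 (adjusted p = 0.0402).

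IGF1R, the receptor of insulin-like growth factor 1, read 13.19, 13.17 and 13.15 in the DMSO samples of HL-60. It read 13.22, 13.20 and 13.22 under DAC and 13.13, 13.12 and 13.08 under NTX-301. DAC samples were the highest and NTX-301 samples the lowest, and the 3 groups did not overlap. The DAC difference was 0.04 (SE 0.02, adjusted p = 0.172). IGF1R fell by 0.06 with NTX-301 (SE 0.02, adjusted p = 0.0320), and by 0.09 with median centring (adjusted p = 0.00341). The call was lost under quantile normalization (-0.02, adjusted p = 0.537), in a fit of the 2 groups alone (adjusted p = 0.0538), and without DMSO replicate 1 (-0.05, adjusted p = 0.104) or 2 (-0.06, adjusted p = 0.0634) or NTX-301 replicate 2 (-0.07, adjusted p = 0.0618) or 3 (-0.05, adjusted p = 0.134). In MOLM-13 it read 9.50, 9.43 and 9.23 in DMSO, 9.37, 9.47 and 9.42 under DAC and 9.40, 9.49 and 9.36 under NTX-301. All 3 groups overlapped, and the differences against DMSO were 0.03 for DAC (SE 0.07, adjusted p = 0.738) and 0.03 for NTX-301 (SE 0.07, adjusted p = 0.755). DMSO replicate 3 lay lowest of the 9, and without it both differences were below 0, at -0.04 and -0.05. They were also below 0 with samples centred on their medians or quantile normalized. The antisense RNA IRAIN overlaps IGF1R in the RefSeq table and a long non-coding RNA overlaps INSR. Whether strand was used in counting is not given in the sources used here, so reads of such pairs may not have been told apart.

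**Figure D3:**
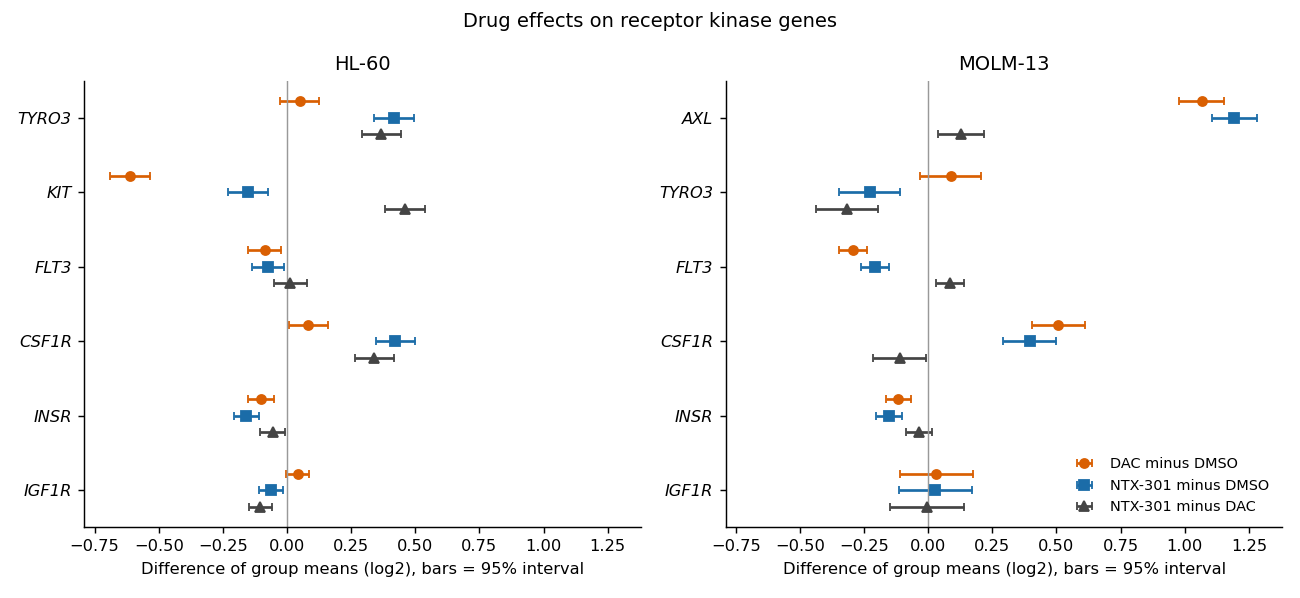
Differences of group means (x axis, log2) of the listed receptor genes in HL-60 (left) and MOLM-13 (right), with limma 95% intervals as bars: circles DAC minus DMSO, squares NTX-301 minus DMSO, triangles NTX-301 minus DAC. TYRO3 under NTX-301 lies at 0.42 in HL-60 and at -0.23 in MOLM-13, and AXL in MOLM-13 lies beyond 1 for both drugs. AXL and KIT were chosen for such values, so their intervals are not read as tests.

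The drugs were compared directly within each line, as 1 pair of compounds, with p-values adjusted over all genes tested. In HL-60, 3 of the 5 receptors other than KIT differed between NTX-301 and DAC, where 30.4% of all genes did (15.4% higher and 15.0% lower with NTX-301, or 1746 higher and 5770 lower genes after median centring against 2622 and 2563). The 3 values of each drug were apart for 4 of these 5, as for 44.4% of all genes. KIT, described without a test, lay 0.46 higher with NTX-301 (SE 0.04). TYRO3 was higher with NTX-301 by 0.37 (SE 0.04, adjusted p = 3.50e-06) and CSF1R by 0.34 (SE 0.03, adjusted p = 6.23e-06). IGF1R was lower with NTX-301, at -0.10 (SE 0.02, adjusted p = 0.00189). INSR did not pass at -0.06 (95% interval -0.11 to -0.0061, adjusted p = 0.0856), but did with median centring (-0.09, adjusted p = 0.00701). FLT3 did not pass either, at 0.01 (95% interval -0.05 to 0.08, adjusted p = 0.785).

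In MOLM-13, 1 of the 5 receptors other than AXL differed between the drugs, where 7.42% of all genes did (3.01% higher, 4.41% lower). The 3 values of each drug were apart for 3 of these 5, as for 27.3% of all genes. That gene was TYRO3, lower with NTX-301 than with DAC by 0.32 on the log2 scale (-0.32, SE 0.06, adjusted p = 0.00701), which ranked 42 from the lowest of 17475 genes. CSF1R was at -0.11 (95% interval -0.21 to -0.0084, adjusted p = 0.182) and FLT3 at 0.09 (95% interval 0.03 to 0.14, adjusted p = 0.0603). FLT3 passed under median centring (adjusted p = 0.0401), under quantile normalization (0.12, adjusted p = 0.00299), with a filter at a linear value of 32 (adjusted p = 0.0449) and without DMSO replicate 1 (adjusted p = 0.0416). INSR was at -0.04 (95% interval -0.09 to 0.01, adjusted p = 0.371) and IGF1R at -0.0043 (95% interval -0.15 to 0.14, adjusted p = 0.980). TYRO3 stood on opposite sides of DAC in the 2 lines, higher with NTX-301 in HL-60 and lower in MOLM-13. The concentrations differed between lines, and whether both drugs were given at the same concentration is not clear.

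Over the 5 receptors listed for both lines, the DAC effect differed between lines for 2 (CSF1R and FLT3), where 30.0% of 15474 genes passed (12.1% higher and 17.9% lower in MOLM-13), and the NTX-301 effect for 2 (TYRO3 and FLT3), where 40.0% did (17.6% higher, 22.4% lower). With median centring, 1346 genes were higher and 4548 lower in the DAC comparison of lines, against 1871 and 2767. IGF1R differed between lines by -0.0099 for DAC (95% interval -0.15 to 0.13, adjusted p = 0.935) and by 0.09 for NTX-301 (95% interval -0.05 to 0.23, adjusted p = 0.313).

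The ligands of these receptors were listed in part. Of 9 ligands, PROS1 and KITLG were listed for both lines, GAS6 and FLT3LG for MOLM-13 alone, and CSF1, IL34, INS, IGF1 and IGF2 for neither. KITLG, the stem cell factor that binds KIT, read 8.98, 8.91 and 8.94 in the DMSO samples of HL-60, 9.72, 9.77 and 9.81 under DAC and 9.31, 9.33 and 9.18 under NTX-301. The 3 groups did not overlap, and their order was the reverse of that of KIT: DAC highest and DMSO lowest. KITLG rose by 0.82 with DAC (SE 0.04, adjusted p = 1.15e-08) and by 0.33 with NTX-301 (SE 0.04, adjusted p = 3.67e-05), and lay below DAC in the NTX-301 samples (-0.49, SE 0.04, adjusted p = 1.39e-06). In MOLM-13, where KIT was not listed, KITLG rose by 0.13 with DAC (SE 0.03, adjusted p = 0.00718) and 0.20 with NTX-301 (SE 0.03, adjusted p = 0.000301).

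GAS6, the ligand of AXL, read 13.21, 13.18 and 13.19 in the DMSO samples of MOLM-13, 13.18, 13.24 and 13.20 under DAC and 13.03, 13.01 and 12.99 under NTX-301. NTX-301 samples were the lowest 3, and DAC and DMSO samples overlapped. GAS6 fell by 0.19 with NTX-301 (SE 0.02, adjusted p = 6.25e-05), and by less under quantile normalization (-0.09, adjusted p = 0.0181). Its DAC difference was 0.01 (SE 0.02, adjusted p = 0.677), a value that passed at 0.09 after quantile normalization (adjusted p = 0.0154) and was -0.02 with samples centred on their medians and -0.00055 without DAC replicate 2. PROS1, the other TAM ligand, rose by 0.11 with NTX-301 in HL-60 (SE 0.03, adjusted p = 0.00300). It was at 0.07 with DAC there (SE 0.03, adjusted p = 0.0559), which passed with median centring (adjusted p = 0.0420), with the filter at 32 (adjusted p = 0.0399) and without DMSO replicate 3 (0.09, adjusted p = 0.0295). In MOLM-13 PROS1 was at 0.02 with DAC (SE 0.05, adjusted p = 0.788) and -0.07 with NTX-301 (SE 0.05, adjusted p = 0.338), which passed under quantile normalization (-0.15, adjusted p = 0.0443). FLT3LG, the FLT3 ligand, was at 0.06 and 0.04 in MOLM-13 (SE 0.05 for both, adjusted p = 0.424 and 0.528).

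With carriers of the insulin-like growth factors and their decoy receptor IGF2R included, 17 genes were looked for, of which 7 had values in HL-60 and 8 in MOLM-13. In HL-60, 4 rose and 1 fell with DAC (24.2% of all genes passed), and 6 rose and 1 fell with NTX-301 (37.4%). IGFBP2 rose by 0.24 and 0.59 (adjusted p = 5.38e-05 and 3.91e-09), and IGFBP4 by 0.59 with NTX-301 (adjusted p = 8.47e-09). IGFBP7, a secreted binding protein of this family, fell by 0.42 with DAC and by 0.29 with NTX-301 (adjusted p = 1.27e-05 and 0.000120). In MOLM-13, 2 rose and 0 fell with DAC (36.6% of all genes passed), IGF2R (0.11, adjusted p = 0.00181) and KITLG. The IGF2R value was 0.07 with median centring (adjusted p = 0.0290) and 0.23 with quantile normalization (adjusted p = 7.13e-06). With NTX-301 3 rose and 1 fell there (45.1% of all genes passed), IGF2R (0.14, adjusted p = 0.000209), IGFBP7 (0.15, adjusted p = 0.000610) and KITLG higher and GAS6 lower.

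Of 58 human receptor tyrosine kinase genes, 20 had values in HL-60 and 27 in MOLM-13, with 17 in both and 28 in neither. Leaving out the 8 genes above, 14 were tested in HL-60 and 21 in MOLM-13. In HL-60, 3 of the 14 were higher and 2 lower with DAC (24.2% of all genes passed), and 6 higher and 2 lower with NTX-301 (37.4%). In MOLM-13, 3 of the 21 were higher and 3 lower with DAC (36.6% of all genes passed), and 7 higher and 3 lower with NTX-301 (45.1%). ERBB4, a neuregulin receptor, was higher in HL-60 with DAC (0.38, SE 0.04, adjusted p = 1.50e-05) and lower in MOLM-13 with DAC (-0.53, SE 0.06, adjusted p = 3.88e-05) and NTX-301 (-0.61, SE 0.06, adjusted p = 7.86e-06). FGFR3, a fibroblast growth factor receptor, rose by 0.62 with NTX-301 in HL-60 (SE 0.05, adjusted p = 1.66e-07). Its DAC call there (0.17, adjusted p = 0.0170) was lost under quantile normalization (adjusted p = 0.0891), without DMSO replicate 3 (adjusted p = 0.0615) and without DAC replicate 2 (0.12, adjusted p = 0.0801). EPHB4, an ephrin receptor, was at -0.15 with DAC in HL-60 (adjusted p = 0.0216). That call was lost without DMSO replicate 1 or 3 or DAC replicate 1 or 3, at adjusted p-values from 0.0527 to 0.0933. AXL was the receptor tyrosine kinase with the highest difference in MOLM-13 under both drugs, and KIT the one with the lowest in HL-60 under DAC. Both were chosen for these values, so nothing is read from their places.

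**Figure D4:**
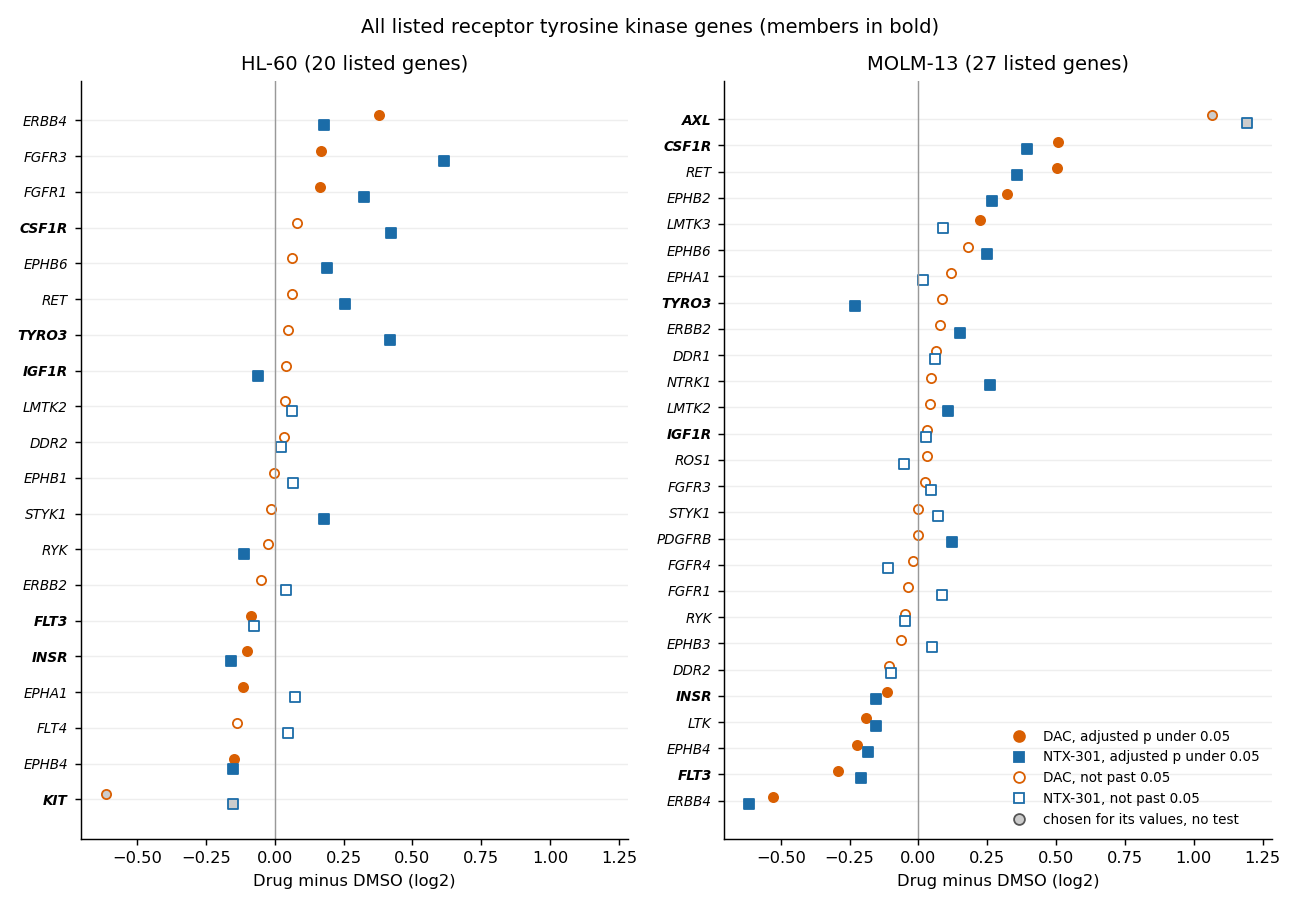
Drug minus DMSO (x axis, log2) of every listed receptor tyrosine kinase gene (y axis), ordered by the DAC difference in HL-60 (left, 20 genes) and MOLM-13 (right, 27 genes); circles are DAC, squares NTX-301, filled in colour where the limma adjusted p-value was under 0.05. The 8 genes described here are in bold where listed: AXL is at the top of MOLM-13 and KIT at the bottom of HL-60, both drawn in grey because they were chosen for these values and not tested.

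Among 22 adaptors and first signalling steps, all were listed for HL-60, and MOLM-13 lacked IRS1. In HL-60, 6 rose and 5 fell with DAC (24.2% of all genes passed), and 6 rose and 9 fell with NTX-301 (37.4%). GAB2, a docking protein downstream of KIT, FLT3 and CSF1R, rose by 0.42 and 0.62 (adjusted p = 5.48e-06 and 4.67e-08), and PLCG1, a phospholipase recruited by active receptors, by 0.54 and 0.57 (adjusted p = 1.75e-06 and 3.68e-07). PLCG2, its haematopoietic paralogue, was lower with both, at -0.25 and -0.28 (adjusted p = 5.31e-06 and 6.33e-07). The kinase FES was lower with NTX-301, at -0.35 (adjusted p = 8.89e-08), and the exchange factor VAV1 was lower with DAC, at -0.21 (adjusted p = 0.000114).

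In MOLM-13, 6 of the 21 adaptors and first steps rose and 6 fell with DAC (36.6% of all genes passed), and 6 rose and 7 fell with NTX-301 (45.1%). The kinase SRC rose by 0.50 and 0.56 (adjusted p = 4.19e-05 and 1.15e-05), and IRS2, the docking protein of INSR and IGF1R, by 0.28 with DAC (adjusted p = 0.000112). GAB1 rose by 0.23 with NTX-301 (adjusted p = 0.000667). PTPN11, the phosphatase SHP2, was at -0.14 with DAC (adjusted p = 0.00244), lost under quantile normalization (-0.05, adjusted p = 0.0743), and at -0.24 with NTX-301 (adjusted p = 4.07e-05; -0.12, adjusted p = 0.000608 when quantile normalized). The adaptor SHC1 was lower with DAC (-0.20, adjusted p = 0.000130) and the PI3K subunit PIK3CD with NTX-301 (-0.24, adjusted p = 7.40e-06). Quantile normalization brought PIK3CD to -0.14 (adjusted p = 0.000671).

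Of 19 genes that restrain or shed receptors, 16 had values in HL-60 and 18 in MOLM-13. In HL-60, 3 rose and 1 fell with DAC (24.2% of all genes passed), and 6 rose and 2 fell with NTX-301 (37.4%). CBL, the ubiquitin ligase that sends active receptors to degradation, fell by 0.34 with NTX-301 (SE 0.02, adjusted p = 1.28e-07), as did the phosphatase PTPN6 by 0.21 (adjusted p = 2.97e-06). SH2B3, an inhibitor of KIT and FLT3 signalling, rose by 0.27 with NTX-301 (adjusted p = 1.06e-05), and SOCS1, an inhibitor of cytokine signalling, by 0.25 (adjusted p = 3.23e-05). With DAC, the inhibitory adaptor GRB10 and the phosphatase PTPRJ rose by 0.19 and 0.18 (adjusted p = 5.84e-06 and 0.000135), and the lipid phosphatase INPP5D was lower (-0.15, adjusted p = 9.59e-05).

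In MOLM-13, 4 of these 18 rose and 4 fell with DAC (36.6% of all genes passed), and 4 rose and 3 fell with NTX-301 (45.1%). SOCS1 rose by 0.28 and 0.38 (adjusted p = 0.00130 and 0.000110), the DAC value being 0.18 when quantile normalized (adjusted p = 0.0297). SOCS3, of the same family, rose by 0.44 with DAC (SE 0.11, adjusted p = 0.00754), and CBLB by 0.34 with NTX-301 (adjusted p = 0.000411). SOCS2 was lower with both drugs, at -0.39 and -0.18 (adjusted p = 2.43e-06 and 0.000272), and the NTX-301 value was -0.08 when quantile normalized (adjusted p = 0.0263). GRB10, which binds INSR, was lower with NTX-301 (-0.19, adjusted p = 0.00714). Its DAC value of -0.13 (adjusted p = 0.0483) was lost without any 1 of the DMSO or DAC samples or NTX-301 replicate 3, with adjusted p-values from 0.0582 to 0.126. It was also lost with no mean-variance trend (adjusted p = 0.0784), quantile normalization (-0.10, adjusted p = 0.147) and a pseudocount of 1 (adjusted p = 0.0514).

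Genes with the most similar pattern were found by the root mean square difference over the 9 samples of a line, after subtracting each gene's DMSO mean. Nearest to AXL in MOLM-13 were CDKN1A (0.13), C3 (0.16) and NEAT1 (0.24). CDKN1A encodes the cell cycle inhibitor p21, and its differences were 0.89 with DAC and 1.07 with NTX-301. Nearest to KIT in HL-60 were SH3TC1 (0.09), GPR141 (0.10) and PLCH1 (0.11), with SH3TC1 at -0.72 and -0.17. CSF1R lay nearest to another receptor tyrosine kinase, RET, in MOLM-13 (0.04, with differences of 0.50 and 0.36), then to PLXND1 and GRINA (0.05 each). In HL-60 it lay nearest to MAD2L2 (0.02), ACSL6 and LAX1 (0.03 each). For FLT3 the nearest were HMGN2 (0.01), COQ5 and FBXO5 (0.02 each) in MOLM-13 and EEF1A1 (0.01), TTC1 and ZNF586 (0.02 each) in HL-60. The nearest genes of AXL lay farther away than those of FLT3 or CSF1R in MOLM-13. AXL and KIT were chosen for large differences, which few genes share, so nothing is read from their nearest genes or distances.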

How the data were processed

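RNA of 18 samples was extracted with a column kit and sequenced after stranded total RNA library preparation, per the labels' protocols. The authors deposited 1 normalized expression value per gene and sample on a log2 scale. The method of normalization is not given in the sources used here. The submitters' processing notes name FastQC, Trimmomatic 0.38, HISAT2, StringTie and the build hg19. Values of low genes span little: the median range over the 9 samples of a line was 0.0210 (HL-60) and 0.0268 (MOLM-13) on the log2 scale for genes with a mean under 3, against 0.208 and 0.257 for means from 8 to 12. Differences and linear folds are those of this deposited scale, and how they relate to transcript numbers was not tested. Depth is unknown, so no interval for counting error is given.

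Two-sided tests on the deposited log2 values used limma 3.58.1 (R 4.3.3; lmFit, then eBayes with trend), with the 9 samples of a line in 1 fit of group means. A gene entered with a linear value of 1 or more in 3 or more samples (17046 in HL-60, 17475 in MOLM-13). Benjamini-Hochberg adjustment ran over all of these, with a threshold of 0.05. Differences of drug effects between lines were fitted on all 18 samples over 15474 genes. The steps were tested on simulated data.

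The receptors and the gene lists were chosen with earlier results of these data known. Named genes were the 8 receptors, their 9 ligands, the 2 highest and 2 lowest called genes of each list per drug, and the 3 genes nearest in pattern to AXL, KIT, FLT3 and CSF1R. CD86, ITGAM, CD14, GATA2, CPA3 and other named markers, and the further IGF carriers, were named after their values were seen. Alternatives were no trend, median centring, quantile normalization, a pseudocount of 1, no filter, a filter at a linear value of 32, only the groups compared, a replicate block and leaving out each sample.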

Additional observations from a re-analysis of the deposited data

Results flagged for a closer look

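The drug effects of 3 receptors differed between the lines by the test of the difference itself (limma, Benjamini-Hochberg adjusted over 15474 genes). TYRO3 responded to NTX-301 in opposite directions, with a difference of effects (MOLM-13 less HL-60) of -0.65 on the log2 scale (SE 0.06, adjusted p = 2.38e-07). All 3 treated samples lay above the DMSO samples in HL-60 and all 3 lay below them in MOLM-13. CSF1R rose more with DAC in MOLM-13, by 0.42 (SE 0.06, adjusted p = 5.26e-05). FLT3 fell more in MOLM-13 with DAC, at -0.21 (SE 0.04, adjusted p = 0.000376), and with NTX-301, at -0.13 (SE 0.04, adjusted p = 0.00850). Quantile normalization brought the FLT3 differences to -0.12 (adjusted p = 0.00877) for DAC and -0.02 for NTX-301, which then did not pass (adjusted p = 0.665). The concentration differed between the lines, so line and dose cannot be told apart. Low deposited values span less, and whether this bears on the differences between lines was not tested.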

How the results depend on the processing

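Of the counts of listed receptors that passed, 7 of 8 stayed within 1.5 times under every alternative. These counts, and those with the replicate block below, include KIT in HL-60 and AXL in MOLM-13. Both were chosen for their values, so the counts serve only to compare settings. NTX-301 against DAC in MOLM-13 gave 1 receptor, but 2 with median centring, 3 with quantile normalization and 2 with the filter at 32, and 1 to 2 when each sample was left out (2 without DMSO replicate 1 or 2). Signs turned only where the difference was small and had not passed. With median centring, FLT3 in HL-60 (NTX-301 against DAC) was -0.0210, IGF1R in MOLM-13 -0.0047 with DAC, -0.0021 with NTX-301 and 0.0026 between the drugs, the TYRO3 difference of DAC effects -0.0010, GAS6 with DAC -0.0227 and PROS1 with DAC in MOLM-13 -0.0151. With quantile normalization, IGF1R in MOLM-13 was -0.0252 with DAC and -0.0331 with NTX-301, PROS1 with DAC in MOLM-13 -0.0435, FLT3LG -0.0111 with DAC and -0.0401 with NTX-301, and the differences between lines were -0.0031 for TYRO3 with DAC, 0.0818 for INSR with DAC and -0.0160 for IGF1R with NTX-301. Leaving out 1 sample turned the sign in ranges of -0.0129 to 0.0332 (FLT3, NTX-301 against DAC in HL-60), -0.0444 to 0.0868, -0.0487 to 0.0825 and -0.0401 to 0.0221 (IGF1R in MOLM-13 with DAC, with NTX-301 and between drugs), -0.0278 to 0.0061 and -0.0061 to 0.0255 (INSR, between lines, DAC and NTX-301), -0.0866 to 0.0446 (IGF1R, between lines, DAC) and -0.0504 to 0.0080 (CSF1R, between lines, NTX-301). For ligands the ranges were -0.00055 to 0.0275 (GAS6 with DAC), -0.0221 to 0.0562 (PROS1 with DAC in MOLM-13), -0.0091 to 0.0871 (FLT3LG with NTX-301) and -0.0656 to 0.0306 (FLT3LG between drugs). The cause was not tested. Among the lists, median centring moved adaptors higher from 6 to 3 (NTX-301 in HL-60) and from 6 to 3 (DAC in MOLM-13), and brakes lower with NTX-301 from 2 to 6 in HL-60 and from 3 to 6 in MOLM-13. Quantile normalization in MOLM-13 moved, with DAC, ligands higher from 2 to 4, adaptors lower from 6 to 1 and brakes lower from 4 to 1, and, with NTX-301, receptor tyrosine kinases higher from 9 to 5, ligands lower from 1 to 2, adaptors higher from 6 to 10 and lower from 7 to 3, and brakes higher from 4 to 9. The filter at 32 moved brakes lower with DAC in HL-60 from 1 to 2, and the fit of 2 groups and the block moved those in MOLM-13 from 4 to 2. With DAC in HL-60, receptor tyrosine kinases lower went from 5 to 2 without DMSO replicate 3 and to 3 without DMSO replicate 1 or 2 or any 1 of the DAC samples. Adaptors lower went there from 5 to 3 without DMSO replicate 3, and brakes lower from 1 to 2 without NTX-301 replicate 3. Adaptors higher with NTX-301 in HL-60 went from 6 to 3 without NTX-301 replicate 2. In MOLM-13, brakes lower with DAC went from 4 to 1 without DMSO replicate 3 and to 2 without any other 1 of the DMSO or DAC samples or NTX-301 replicate 3, and receptor tyrosine kinases higher with NTX-301 from 9 to 5 without DMSO replicate 3 or NTX-301 replicate 1 or 2. With the replicate block, 3, 6 and 4 receptors passed in HL-60 (DAC, NTX-301 and NTX-301 against DAC), 4, 5 and 1 in MOLM-13 and 2 and 2 between lines, and the block gained FLT3 with NTX-301 in HL-60 (adjusted p = 0.0495) and lost GRB10 with DAC in MOLM-13 (adjusted p = 0.0580). After subtracting group means, same-numbered samples correlated between -0.06 and 0.12 in HL-60 and between -0.16 and 0.11 in MOLM-13. For samples of different number the ranges were -0.12 to 0.11 and -0.12 to 0.16. In HL-60 6 of 9 correlated best with their own number, and in MOLM-13 1 of 9. With 3 samples per group this cannot settle whether same-numbered samples belong together, and the main fits treat them as unpaired. Unknown depth limits all values.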
